A study of Mus musculus with 18 samples.

Results

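The wild-type libraries of this RNA-seq series were compared with one another, so that no difference described here is a difference of genotype. They were chosen by their label alone and make up 8 of the 18 samples. All 8 are mouse embryonic stem (ES) cells of the 129S6/SvEvTac background, with no deletion and no transgene stated, grown on gelatin in 15% foetal calf serum with leukaemia inhibitory factor (LIF). The replicate numbers were used to place the libraries in 3 sets, wt 1-2 (n = 2), wt 3-5 (n = 3) and wt 6-8 (n = 3), and the comparison was of wt 6-8 with wt 1-5. The sets were chosen with earlier results of these data known, so calls between them describe these libraries and are no independent test. The labels do not say what separates the sets, whether a set is 1 culture or several, or when each was harvested, and the study's design text gives at most 5 RNA replicates for a condition. What the p-values rest on is thus the scatter of these 8 libraries, which may be partly technical. The other 10 samples, which lack Snf2h or carry it as an add-back, entered no comparison, and only an alternative fit used them to estimate spread.

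ES cells in serum and LIF are a mixed population. Most cells express the core pluripotency factors, while small numbers drift towards primitive endoderm, towards the primed state of the later epiblast, or briefly into a 2-cell-like state in which genes of the cleavage embryo are transcribed. Such cultures also adjust their metabolism to oxygen, glucose and cell density, largely through the hypoxia-inducible factors, which drive glycolytic genes when oxygen is low. In RNA from whole cultures, more cells of a type and more RNA per cell cannot be told apart.

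Most tested genes of 2 lists of endoderm genes were called higher in wt 6-8 than in wt 1-5, and most tested genes of the hypoxia-response and glycolysis lists were called lower. Cubn, Lrp2, Dab2, Gata4, Gata6, Sox7 and Pdgfra were all at least 2-fold higher in wt 6-8, whereas Ndufa4l2, Bnip3 and Ddit4 were more than 5-fold lower. Between wt 3-5 and wt 1-2, 11 of 21 tested 2-cell-like genes were called lower in wt 3-5 and 0 higher. Over all tested genes 9.95% were lower and 9.48% higher. The 11 fell to 3 with a GC content correction and to 1 with all 18 samples in the fit. The core pluripotency factors differed by smaller steps and in both directions. In wt 6-8 the log2 fold change was 0.53 for Pou5f1, -0.32 for Sox2 and -0.42 for Esrrb, all called. Nanog was not called, and lay between 461 and 527 CPM (counts per 1000000 counts of the TMM-scaled library) in every library.

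The totals of counted reads went with the sets, at 22876751 to 25277453 in wt 1-2, 30979443 to 36980127 in wt 3-5 and 16808855 to 18992291 in wt 6-8, so depth and set cannot be told apart by design. Thinning every library to 16808855 counts gave 4955 calls between wt 6-8 and wt 1-5, against 5327 at full depth, with 4765 genes in both. Smarca5, which encodes Snf2h, was at 139 to 214 CPM in the wild-type libraries and at 8.77 to 10.2 CPM in the knockout libraries, as the labels have it. Within the wild type it was lower in wt 3-5 than in wt 1-2 (log2 fold change -0.45 ± 0.08, adjusted p = 0.00497 by edgeR), a call lost with a GC content correction or without wt 1.

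The 2 libraries of wt 1-2 were close to each other, and so were the 3 of wt 6-8. A chi-square statistic of the counts per gene, which is 1 where libraries differ by sampling alone, was 1.82 between wt 1 and wt 2 and 1.45 to 2.09 within wt 6-8. Within wt 3-5 it was 15.0 between wt 4 and wt 5, and 38.6 and 30.7 between wt 3 and these, so wt 3 stood apart. Between sets it was 29.4 to 65.3. In a principal component analysis of log2 CPM over the 14767 tested genes, component 1 held 61.2% of the variance and placed wt 6-8 at 40.3 to 41.1, wt 3 at -9.12, wt 1 and wt 2 at -20.3 and -22.5, and wt 4 and wt 5 at -35.8 and -34.2. Component 2, with 13.6%, placed wt 1-2 on one side and wt 3-5 on the other. Counts of list members that differ by 1.5 times or more without wt 3 are given both ways below.

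**Figure D1:**
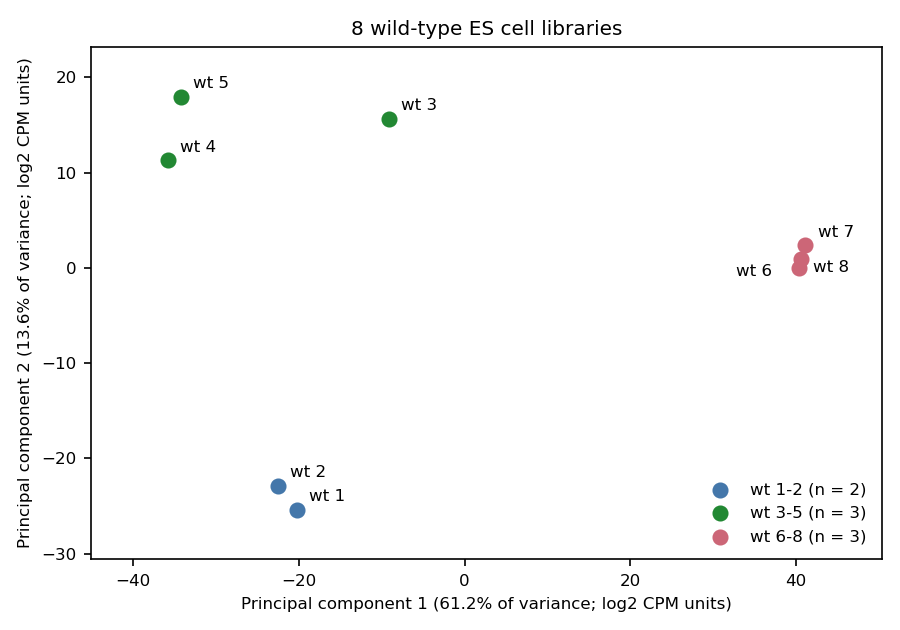
Principal component 1 (x axis, 61.2% of variance) against component 2 (y axis, 13.6%) of log2 CPM in the 8 wild-type libraries, 1 point per library, coloured by set. The 3 libraries of wt 6-8 lie together at the right, wt 1 and wt 2 lie together at the lower left, and wt 3 lies apart from wt 4 and wt 5.

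Of 14767 genes tested with edgeR's quasi-likelihood test, 5327 (36.1%) were called between wt 6-8 and wt 1-5 at an adjusted p under 0.05, 2567 higher (17.4%) and 2760 lower (18.7%) in wt 6-8. Leaving out wt 6, wt 7 or wt 8 gave 3231, 3157 and 3172 calls. A difference of 2-fold or more was seen in 300 of the higher and 811 of the lower genes. Without regard to the test, 3127 genes (21.2%) had every library of wt 6-8 above every library of wt 1-5, and 3032 (20.5%) had every one below. Against wt 1-2 alone there were 5318 calls (36.0%), 2721 higher (18.4%) and 2597 lower (17.6%) in wt 6-8. This count was 2259 without wt 1, 2195 without wt 2, 3462 without wt 7 and 3536 without wt 8. Against wt 3-5 there were 7210 calls (48.8%), 3687 higher (25.0%) and 3523 lower (23.9%). Between wt 3-5 and wt 1-2 there were 2870 calls (19.4%), 1400 higher (9.48%) and 1470 lower (9.95%) in wt 3-5. That count was 5675 without wt 3, 301 without wt 1 and 564 without wt 2. These comparisons share libraries and are not independent of one another. Libraries within wt 1-2 and within wt 6-8 differed by little more than sampling. The p-values may thus count near-technical repeats as separate cultures. The median log2 fold change of wt 6-8 against wt 1-5 by chromosome lay between -0.07 and 0.02 on all 20 chromosomes with at least 100 tested genes.

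Before the groups of genes are described, markers were used to check what the cultures held. The summed CPM of Pou5f1, Nanog, Sox2, Zfp42 and Esrrb was 3143 to 3509 in wt 1-5 and 3473 to 3599 in wt 6-8, so all libraries carried the pluripotent programme. The 9 markers of fibroblasts, the feeder cells used for other lines of this study, summed to 14.6 to 31.7 CPM in wt 1-5 and 24.6 to 25.3 CPM in wt 6-8. Most of that was Thy1, and the defining markers Lum, Dcn, Postn, Twist2, Prrx1 and Col3a1 were each at or under 0.431 CPM in every library. The 7 endoderm markers summed to 123 to 194 CPM in wt 1-5 and 485 to 501 CPM in wt 6-8. Markers of trophectoderm (2.48 to 5.72 CPM), primitive streak (5.00 to 10.01 CPM) and neuroectoderm (6.48 to 14.7 CPM) were low in every library.

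Primitive endoderm is specified by Gata6 and Gata4, zinc-finger transcription factors, and by Sox17 and Sox7, HMG-box factors, and its cells carry the PDGF receptor Pdgfra. Of 16 tested endoderm factors and receptors (17 listed), 10 were higher and 1 was lower in wt 6-8, against 17.4% higher and 18.7% lower over all tested genes. Their median log2 fold change was 1.24, against -0.01 over all genes. Without wt 3 the counts were 10 higher and 2 lower.

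Gata4 (Entrez 14463, chromosome 14, 63198914 to 63271712 on GRCm38) was at 34.5, 36.4, 45.4, 46.4 and 59.6 CPM in wt 1 to wt 5 and at 106, 110.1 and 108 CPM in wt 6 to wt 8. Gata6 was at 11.1, 11.5, 13.1, 14.7 and 15.1 CPM and at 33.1, 33.8 and 34.8 CPM in the same order. The libraries of wt 6-8 lay above all 5 others for both genes, with means of 108 ± 1.89 against 44.5 ± 9.96 CPM for Gata4 and 33.9 ± 0.883 against 13.1 ± 1.81 CPM for Gata6. Here and below, CPM means are given ± SD (n = 3 for wt 6-8 and n = 5 for wt 1-5) and log2 fold changes ± SE. The differences were 2.43-fold (log2 fold change 1.28 ± 0.14, adjusted p = 0.000115 by edgeR) and 2.58-fold (log2 fold change 1.37 ± 0.11, adjusted p = 1.74e-05). Gata4 was also higher in wt 3-5 than in wt 1-2 (log2 fold change 0.51 ± 0.11, adjusted p = 0.00983), and its 3 sets did not overlap, but that second call was lost with a GC correction, with all 18 samples in the fit, and without wt 1 or wt 2. Over the list, 6 genes were higher (37.5%) and 0 lower in wt 3-5 than in wt 1-2, against 9.48% and 9.95% of all tested genes. The list had 1 and 0 with a GC correction and 0 and 0 with all 18 samples in the fit.

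Sox17 was at 7.87, 7.85, 7.34, 10.5 and 11.8 CPM in wt 1 to wt 5 and 20.9, 21.8 and 20.3 CPM in wt 6 to wt 8 (log2 fold change 1.20 ± 0.15, adjusted p = 0.00021). Sox7 was at 11.8, 10.97, 14.3, 13.8 and 13.5 CPM and 44.2, 47.2 and 47.8 CPM (log2 fold change 1.85 ± 0.10, adjusted p = 1.11e-06). Neither overlapped between wt 6-8 and the rest. Over the list, 10 of 16 tested genes lay wholly higher in wt 6-8 and 2 wholly lower, against 21.2% and 20.5% of all tested genes. Pdgfra (Entrez 18595, chromosome 5, 75151322 to 75198206) was at 13.6, 15.3, 15.9, 15.6 and 17.4 CPM in wt 1 to wt 5 and 42.4, 43.1 and 44.8 CPM in wt 6 to wt 8, a 2.79-fold difference (log2 fold change 1.48 ± 0.09, adjusted p = 1.98e-06). Foxa2, a forkhead factor of definitive and visceral endoderm, was higher at a low level, at 6.02 ± 0.520 against 3.39 ± 0.441 CPM (log2 fold change 0.83 ± 0.15, adjusted p = 0.00181), and was not called when all 18 samples entered the fit. The single member that was lower in wt 6-8 was Prdm1, a transcriptional repressor with roles in endoderm and germ cells, at 26.3, 25.9, 21.9, 24.9 and 21.7 CPM in wt 1 to wt 5 and 11.1, 9.26 and 10.3 CPM in wt 6 to wt 8 (log2 fold change -1.24 ± 0.11, adjusted p = 3.77e-05).

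**Figure D2:**
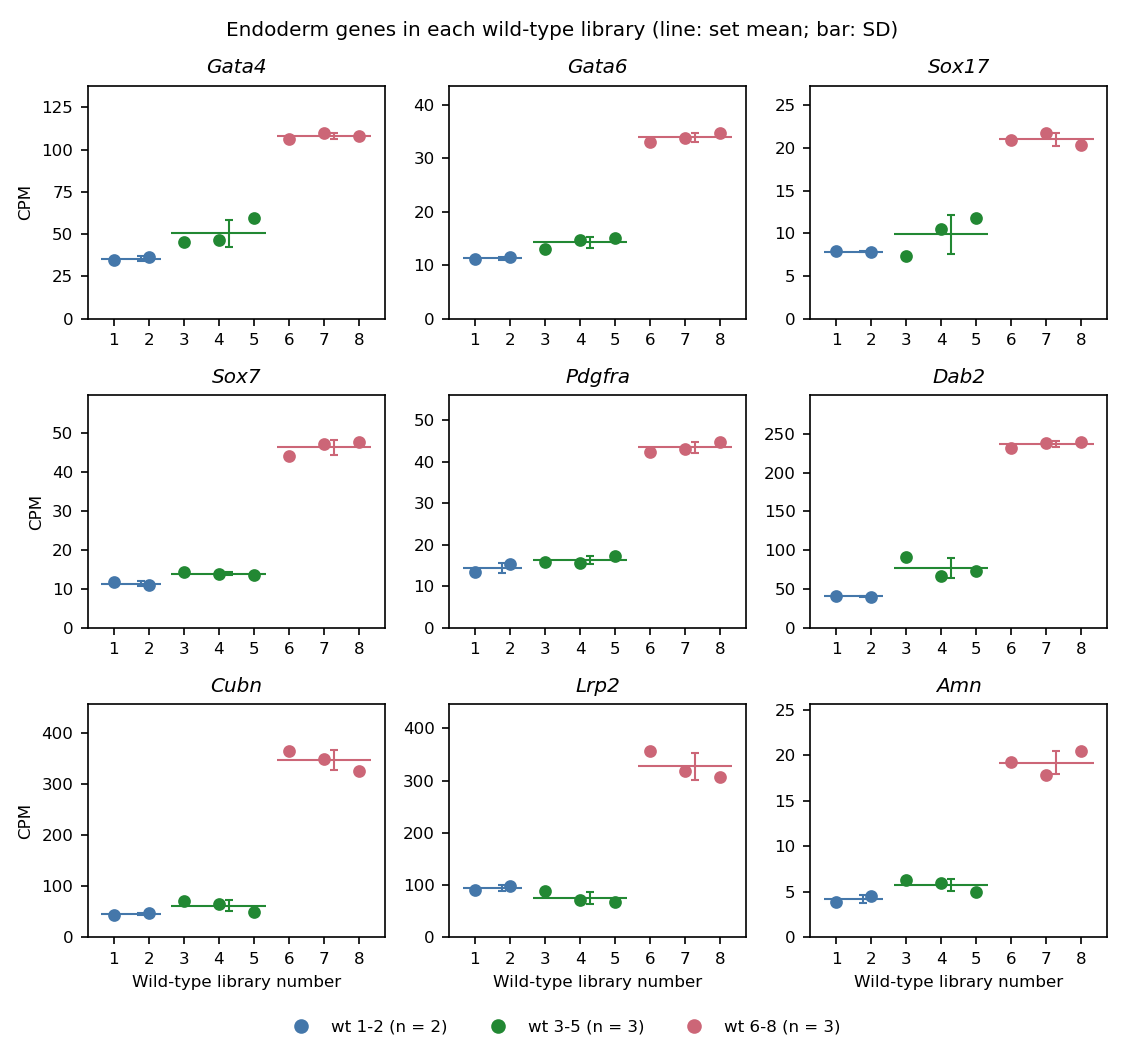
CPM (y axis, from 0) of 9 endoderm genes in each wild-type library (x axis, library number), coloured by set, with lines at set means and bars of 1 SD. In each panel the 3 libraries of wt 6-8 lie above the 5 others, as for Cubn at 325 to 364 against 43.2 to 70.1 CPM.

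Visceral endoderm takes up protein and lipid from its surroundings through the endocytic receptors megalin (Lrp2) and cubilin (Cubn), with amnionless (Amn) as the membrane anchor of cubilin and Dab2 as an adaptor to the clathrin coat. Of 16 tested genes of visceral endoderm and its transport functions (20 listed), 10 were higher (62.5%) and 2 lower (12.5%) in wt 6-8, against 17.4% and 18.7% of all tested genes. The median log2 fold change was 1.32. These counts were the same without wt 3. The median was 0.50 with no filter on low counts, which adds the members with few reads, 0.69 without wt 6 and 0.79 without wt 8. The tested members with values here and in the next paragraph were all higher. Of the 16, 4 had log2 fold changes under 0, the lowest -1.06. The summed CPM of the whole list had a mean of 910 in wt 1-5 and 1351 in wt 6-8. Cubn (Entrez 65969, chromosome 2, 13276338 to 13491876) was at 43.2, 46.9, 70.1, 64.2 and 49.6 CPM in wt 1 to wt 5 and 364, 348 and 325 CPM in wt 6 to wt 8, a 6.30-fold difference (log2 fold change 2.66 ± 0.14, adjusted p = 1.11e-06). Lrp2 was at 90.6, 98.3, 88.7, 70.6 and 66.9 CPM and 357, 318 and 308 CPM (log2 fold change 1.98 ± 0.12, adjusted p = 1.98e-06). Amn was at 3.91, 4.53, 6.32, 5.91 and 4.99 CPM and 19.2, 17.9 and 20.5 CPM (log2 fold change 1.89 ± 0.15, adjusted p = 1.28e-05). Every library of wt 6-8 lay above the rest for these 3 genes, which were named by their small adjusted p in this comparison. Over the list, 11 of the 16 tested genes lay wholly higher in wt 6-8 and 2 wholly lower. Of all tested genes, 21.2% lay wholly higher and 20.5% wholly lower.

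Dab2 differed among all 3 sets, at 41.0 and 40.2 CPM in wt 1-2, 91.9, 67.1 and 72.6 CPM in wt 3-5 and 232, 238 and 239.8 CPM in wt 6-8. It was higher in wt 6-8 than in wt 1-5 (log2 fold change 1.92 ± 0.22, adjusted p = 0.000135) and higher in wt 3-5 than in wt 1-2 (log2 fold change 0.93 ± 0.12, adjusted p = 0.000975). Dkk1, a secreted inhibitor of Wnt signalling made by anterior visceral endoderm, was at 0.608, 0.898, 1.67, 0.778 and 0.505 CPM in wt 1 to wt 5 and 5.77, 5.69 and 6.88 CPM in wt 6 to wt 8 (log2 fold change 2.76 ± 0.29, adjusted p = 7.83e-05). Spink1, a serine protease inhibitor, had another order, with 6.26 and 6.09 CPM in wt 1-2, 3.64, 2.33 and 3.48 CPM in wt 3-5 and 16.8, 16.7 and 17.4 CPM in wt 6-8. It was higher in wt 6-8 (log2 fold change 1.98 ± 0.25, adjusted p = 0.000221) and lower in wt 3-5 than in wt 1-2 (log2 fold change -0.98 ± 0.17, adjusted p = 0.00429), the latter a call lost without wt 1. The late visceral endoderm products Afp and Ttr, a fetal serum protein and a thyroid hormone carrier, stayed under the count minimum, with 6 and 24 counts over all 8 libraries.

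The parietal branch of the endoderm lays down basement membrane. Of 14 basement membrane genes, all tested, 10 were higher (71.4%) and 2 lower (14.3%) in wt 6-8, with a median of 0.58. Over all tested genes the shares were 17.4% and 18.7%. With all 18 samples in the fit, which then share 1 estimate of spread, 2 were higher and 1 lower. Lama1, a laminin chain, was at 599, 645, 404, 559 and 679 CPM in wt 1 to wt 5 and 1130, 1131 and 1121 CPM in wt 6 to wt 8 (log2 fold change 0.97 ± 0.13, adjusted p = 0.000352). Col4a1, a chain of collagen IV, was at 489.7, 497, 394, 579 and 764 CPM and 965, 1017 and 1019 CPM (log2 fold change 0.88 ± 0.16, adjusted p = 0.00189). Both were above all other libraries in wt 6-8, and neither was called in the fit of all 18 samples. Serpinh1, the collagen chaperone, was higher, at 424 ± 21.6 against 212 ± 37.3 CPM (log2 fold change 1.00 ± 0.12, adjusted p = 0.000175), and P3h2, a collagen prolyl hydroxylase, at 2.82 ± 0.136 against 1.06 ± 0.194 CPM (log2 fold change 1.41 ± 0.19, adjusted p = 0.000351). Fn1, which encodes fibronectin, went the other way, at 872 ± 23.6 against 1781 ± 254 CPM (log2 fold change -1.03 ± 0.11, adjusted p = 8.28e-05).

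The hypoxia-inducible factors bind ACGTG or GCGTG near their target genes and are held down in normal oxygen by the prolyl hydroxylases, among them Egln3. Of 19 hypoxia-response genes, all tested, 12 were lower (63.2%) and 1 was higher (5.26%) in wt 6-8, with a median log2 fold change of -0.65. Over all tested genes 18.7% were lower and 17.4% higher. Without wt 3 the counts were 15 lower and 1 higher. The promoter windows of 3 members that were called lower are shown as examples. They run from 250 bases before to 50 after the start of the gene in RefSeq on GRCm38.p6, are written 5′ to 3′ on the gene's strand, and have in capitals every match to ACGTG or GCGTG on either strand (CACGT and CACGC are the other-strand forms, and the 2 forms of ACGTG overlap in CACGTG).
Bnip3, chr7:138909457-138909756, minus strand: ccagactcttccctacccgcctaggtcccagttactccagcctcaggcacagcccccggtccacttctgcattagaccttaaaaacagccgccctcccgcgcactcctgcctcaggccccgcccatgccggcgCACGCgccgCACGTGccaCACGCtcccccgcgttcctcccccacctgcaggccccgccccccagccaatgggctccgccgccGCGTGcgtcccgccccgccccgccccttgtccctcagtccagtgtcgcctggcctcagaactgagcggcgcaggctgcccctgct
Ddit4, chr10:59951721-59952020, minus strand: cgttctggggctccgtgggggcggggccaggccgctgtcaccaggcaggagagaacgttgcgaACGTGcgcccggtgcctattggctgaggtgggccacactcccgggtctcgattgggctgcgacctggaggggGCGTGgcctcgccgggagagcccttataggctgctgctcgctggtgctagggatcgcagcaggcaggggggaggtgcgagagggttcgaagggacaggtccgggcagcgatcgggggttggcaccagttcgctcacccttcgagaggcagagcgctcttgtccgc
Egln3, chr12:54203825-54204124, minus strand: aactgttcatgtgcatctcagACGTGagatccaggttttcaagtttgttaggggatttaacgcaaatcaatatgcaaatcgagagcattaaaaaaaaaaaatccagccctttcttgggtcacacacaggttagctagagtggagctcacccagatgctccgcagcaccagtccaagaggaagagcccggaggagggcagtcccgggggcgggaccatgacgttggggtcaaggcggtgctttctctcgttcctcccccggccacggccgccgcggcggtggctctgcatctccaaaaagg

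Counting each strand, the Bnip3 window held ACGTG 2 times and GCGTG 3 times, the Ddit4 window 1 time each, and the Egln3 window ACGTG 1 time. Over the hypoxia list, 17 of 19 genes had windows, 24 in all, of which 15 (62.5%) held ACGTG and 14 (58.3%) held GCGTG. Over all 14716 windows of tested genes the shares were 24.7% and 49.3%, and over all 32851 windows of that length 19.6% and 32.4%. A match is a description of the letters and was not tested as a binding site. The list was made up of hypoxia-response genes, and its windows were counted whether or not the gene was called. These shares thus describe the list and not the difference between the libraries. Glycolysis genes had 28 windows, 46.4% with ACGTG and 50% with GCGTG.

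Bnip3 (Entrez 12176, chromosome 7, 138890836 to 138909506), a receptor for the removal of mitochondria, was at 132 and 132 CPM in wt 1-2, 40.4, 129 and 125 CPM in wt 3-5 and 17.5, 15.3 and 16.7 CPM in wt 6-8. Ddit4 (Entrez 74747, chromosome 10, 59949675 to 59951770), an inhibitor of mTORC1, was at 109 and 124, 46.4, 153 and 133 and 20.9, 20.2 and 18.5 CPM in the same order. Egln3 was at 106 and 110.0, 42.1, 158 and 137 and 33.6, 28.5 and 29.1 CPM. In each case wt 6-8 lay below every other library and wt 3 lay between them and the remaining 4. Over the list, 12 of 19 genes lay wholly lower in wt 6-8 and 1 wholly higher, against 20.5% and 21.2% of all tested genes. The differences of wt 6-8 from wt 1-5 were 6.76-fold lower for Bnip3 (log2 fold change -2.76 ± 0.34, adjusted p = 0.000184), 5.70-fold for Ddit4 (log2 fold change -2.51 ± 0.31, adjusted p = 0.000192) and 3.64-fold for Egln3 (log2 fold change -1.86 ± 0.33, adjusted p = 0.00147).

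The gene furthest down in wt 6-8 by the naming rule was Ndufa4l2 (Entrez 407790, chromosome 10, 127509274 to 127517154), a hypoxia-inducible relative of a respiratory chain subunit, which was not on the hypoxia list. It was at 19.03, 22.7, 7.31, 34.8 and 31.6 CPM in wt 1 to wt 5 and 1.02, 1.03 and 1.32 CPM in wt 6 to wt 8, a 20.5-fold difference (log2 fold change -4.36 ± 0.53, adjusted p = 0.000169). The repressors Bhlhe40 (log2 fold change -1.78 ± 0.29, adjusted p = 0.000993) and Bhlhe41 (log2 fold change -3.07 ± 0.41, adjusted p = 0.00028) were lower too. Pdk1, a kinase that inhibits pyruvate dehydrogenase, was at 333, 341, 275, 398 and 331 CPM in wt 1 to wt 5 and 298, 279 and 273 CPM in wt 6 to wt 8. These ranges overlapped and Pdk1 was not called (log2 fold change -0.24 ± 0.10, adjusted p = 0.0885), except without wt 3. Wt 3 had the lowest level of wt 1-5 in 10 of the 12 hypoxia genes called lower (83.3%), against 41.8% of all 2760 genes called lower.

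Glycolysis genes followed. Of 18, all tested, 15 were lower (83.3%, against 18.7% of all tested genes) and 0 higher in wt 6-8, with a median of -0.72. Without wt 3 the count was 17 lower. Aldoc, an aldolase, was at 39.5, 42.5, 32.8, 75.4 and 57.7 CPM in wt 1 to wt 5 and 14.3, 13.7 and 13.8 CPM in wt 6 to wt 8 (log2 fold change -1.83 ± 0.24, adjusted p = 0.00028). The abundant aldolase Aldoa was at 2068, 2138, 1988, 2744 and 2982 CPM and 1299, 1322 and 1267 CPM (log2 fold change -0.88 ± 0.13, adjusted p = 0.000632). The groups did not overlap for either. Over the list, 15 of 18 genes lay wholly lower in wt 6-8 and 0 wholly higher, against 20.5% and 21.2% of all tested genes. Slc2a1, the glucose transporter GLUT1, was at 853, 853, 677, 1110 and 968 CPM and 512, 477 and 507 CPM (log2 fold change -0.84 ± 0.13, adjusted p = 0.00079), and Ldha, which makes lactate, at 1655, 1650, 1229, 1652 and 1554 CPM and 1056, 1073 and 1062 CPM (log2 fold change -0.54 ± 0.10, adjusted p = 0.00203). Gpi1 was lower, at 434 ± 4.72 against 793 ± 127 CPM and Tpi1 at 376 ± 4.60 against 671 ± 118 CPM (adjusted p = 0.000327 and 0.000639 by edgeR). Wt 3 was the lowest of wt 1-5 in 13 of the 15 genes called lower (86.7%), against 41.8% of all 2760 genes called lower.

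Between wt 3-5 and wt 1-2 the counts of both lists depended on wt 3. With it, 0 hypoxia genes were higher and 1 lower (5.26%) in wt 3-5, and 1 glycolysis gene was higher (5.56%) and 2 lower (11.1%). Over all tested genes 9.48% were higher and 9.95% lower. Without it, 11 were higher and 1 lower among the hypoxia genes, with a median of 0.30, and 11 were higher and 2 lower among the glycolysis genes, with a median of 0.26. Over all 14628 genes tested without wt 3, 2979 were higher and 2696 lower. The counts of both lists thus turned on 1 library.

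**Figure D3:**
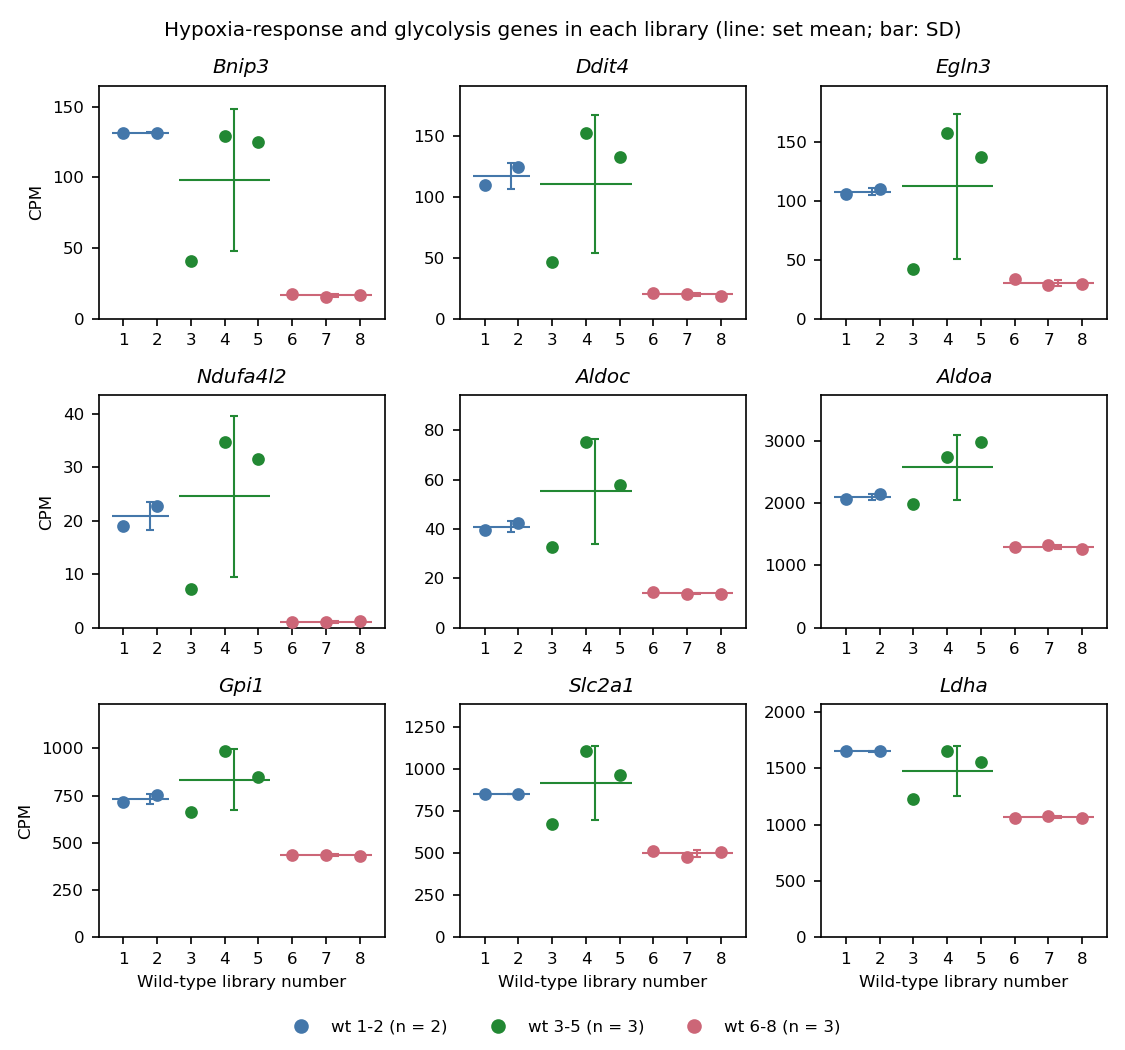
CPM (y axis, from 0) of 9 hypoxia-response and glycolysis genes in each wild-type library (x axis, library number), coloured by set, with lines at set means and bars of 1 SD. The libraries of wt 6-8 lie below the others in each panel, and wt 3 is the lowest of wt 1-5 in all 9, as for Bnip3 at 40.4 CPM against 125 to 132 CPM.

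Other metabolic groups had smaller medians. Of 25 cholesterol synthesis genes, all tested, 11 were lower (44%) and 1 higher (4%) in wt 6-8, with a median of -0.21. Over all tested genes 18.7% were lower and 17.4% higher. Without wt 3 the counts for the list were 12 lower and 2 higher. Insig1, which retains the sterol sensor in the endoplasmic reticulum, was lower, at 58.5 ± 3.08 against 96.6 ± 7.24 CPM (log2 fold change -0.72 ± 0.08, adjusted p = 0.000139), and Fdft1, squalene synthase, at 101.4 ± 0.884 against 165 ± 14.5 CPM (log2 fold change -0.70 ± 0.08, adjusted p = 0.000169). Hmgcs1 differed by -0.40 on the log2 scale (adjusted p = 0.00319). Sqle differed by -0.20 (adjusted p = 0.0418), a call lost when wt 2, 4, 6, 7 or 8 was left out or no filter was set.

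Of 19 serine and one-carbon genes, 8 were lower (42.1%, against 18.7% of all tested genes) and 5 higher (26.3%, against 17.4%), with a median of -0.11. Psat1, of serine synthesis, was lower, at 335 ± 10.6 against 553 ± 44.1 CPM (log2 fold change -0.72 ± 0.08, adjusted p = 0.000138), and the mitochondrial folate enzyme Aldh1l2 at 1.75 ± 0.382 against 6.10 ± 1.08 CPM (log2 fold change -1.80 ± 0.22, adjusted p = 0.000163). Among 76 nuclear genes of oxidative phosphorylation, 14 were higher (18.4%, against 17.4% of all tested genes) and 6 lower (7.89%, against 18.7%), with a median of 0.10. With a correction for exonic length 7 were higher and 7 lower, with a median of 0.04. Cyc1, cytochrome c1, was higher by 0.41 and Ndufv3, a complex I subunit, differed by -0.80 on the log2 scale (adjusted p = 0.00369 and 0.000529). In wt 3-5 against wt 1-2 the same list had 8 higher and 21 lower, against 9.48% and 9.95% of all tested genes. Without wt 3 the counts were 8 and 38, with a GC correction 3 and 25, and with all 18 samples in the fit 4 and 18.

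The stress genes that were called between wt 6-8 and wt 1-5 were mostly lower in wt 6-8. Over all tested genes 18.7% were lower and 17.4% higher. Of 19 tested genes of the integrated stress response (20 listed), 8 were lower (42.1%), 0 higher and 11 not called (8 lower and 1 higher without wt 3), with a median of -0.26. Against wt 3-5 alone 10 were lower (52.6%, against 23.9% of all tested genes) and 4 higher (21.1%, against 25.0%). Ddit3, the pro-apoptotic factor CHOP, was at 13.3, 17.7, 11.04, 22.2 and 14.5 CPM in wt 1 to wt 5 and 3.61, 3.69 and 4.93 CPM in wt 6 to wt 8 (log2 fold change -1.95 ± 0.23, adjusted p = 0.000165). Of 20 tested p53 targets (21 listed), 11 were lower (55%) and 1 higher (5%), with a median of -0.42. Cdkn1a, the cell cycle inhibitor p21, was at 45.2, 51.2, 47.9, 54.6 and 66.0 CPM and 30.3, 32.3 and 32.1 CPM (log2 fold change -0.75 ± 0.12, adjusted p = 0.000807). Bbc3, the death factor PUMA, was lower, at 14.2 ± 0.840 against 31.5 ± 6.99 CPM (log2 fold change -1.15 ± 0.16, adjusted p = 0.000387), and Trp53inp1 at 102 ± 5.16 against 209 ± 39.9 CPM (log2 fold change -1.04 ± 0.14, adjusted p = 0.000323). The groups did not overlap for these 4 genes, which were named by their small adjusted p in this comparison. Of the 20 tested p53 targets, 11 lay wholly lower in wt 6-8 and 1 wholly higher. Of all tested genes, 20.5% lay wholly lower and 21.2% wholly higher.

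**Figure D4:**
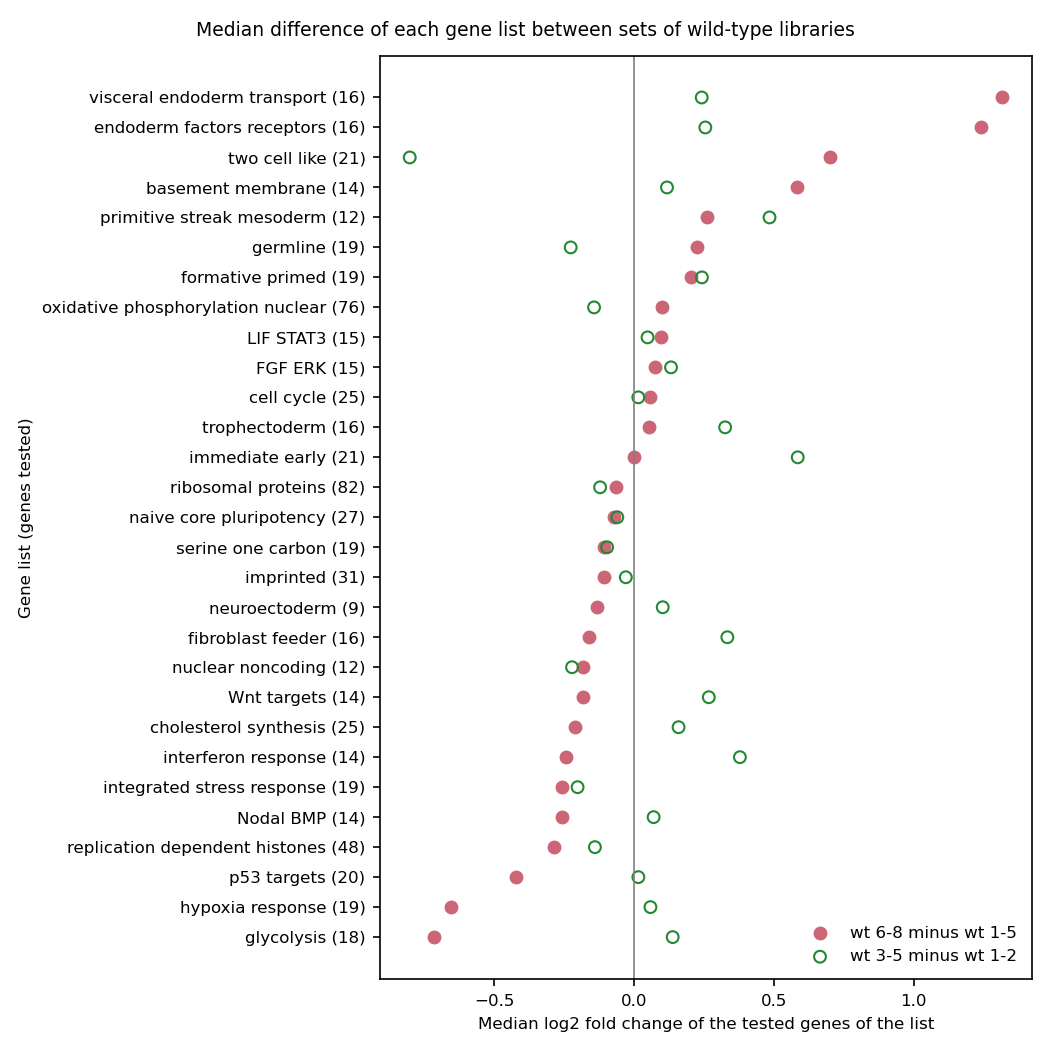
Median log2 fold change (x axis) of the tested genes of each of 29 gene lists (y axis, number tested in brackets). Filled points are wt 6-8 against wt 1-5 and open points wt 3-5 against wt 1-2. The endoderm lists lie at 1.24 and 1.32 and glycolysis at -0.72 for the filled points, and the 2-cell-like list lies at 0.70 for the filled and -0.80 for the open point.

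Genes of the pluripotency network were called in both directions. Of 27 naive and core pluripotency genes, 5 were higher (18.5%) and 8 lower (29.6%) in wt 6-8, with a median of -0.07. Over all tested genes the shares were 17.4% and 18.7%, so the share called higher was near that of all genes. Pou5f1, which encodes Oct4, was at 1201, 1211, 1290, 1153 and 1054 CPM in wt 1 to wt 5 and 1635, 1744 and 1723 CPM in wt 6 to wt 8, a 1.44-fold difference (log2 fold change 0.53 ± 0.08, adjusted p = 0.00055). Sox2, its partner, was at 569, 541, 519, 575 and 526.2 CPM and 445, 411 and 459 CPM (log2 fold change -0.32 ± 0.07, adjusted p = 0.00677). So the groups did not overlap for these partners and differed in opposite directions.

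Esrrb, an orphan nuclear receptor of the naive state, was lower in wt 6-8, at 590.0, 586 and 585 CPM against 707, 722, 888, 758 and 841 CPM in wt 1 to wt 5 (log2 fold change -0.42 ± 0.09, adjusted p = 0.00414). Nanog was at 527, 515, 515, 493.4 and 461 CPM and 474, 474 and 487 CPM (log2 fold change -0.07 ± 0.07, adjusted p = 0.461), and its ranges overlapped. Klf4 (-0.17 ± 0.09) and Zfp42 (0.20 ± 0.11, both log2 fold changes) were not called either, with adjusted p = 0.157 and 0.159. Among the listed genes with the smallest p, Gbx2, a homeobox factor, was 2.86-fold higher, at 39.5, 38.2, 54.7, 44.7 and 41.9 CPM and 126, 124 and 126 CPM (log2 fold change 1.52 ± 0.11, adjusted p = 6.28e-06). Tcl1, a coactivator of Akt, was lower, at 37.7 ± 1.78 against 71.4 ± 5.96 CPM (log2 fold change -0.92 ± 0.09, adjusted p = 5.18e-05), and the adhesion molecule Pecam1 at 60.7 ± 2.25 against 97.5 ± 6.77 CPM (log2 fold change -0.68 ± 0.08, adjusted p = 0.000142).

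Genes of the formative and primed epiblast also split. Of 19, all tested, 7 were higher and 7 lower in wt 6-8 (36.8% each, against 17.4% and 18.7% of all tested genes), with a median of 0.20. The de novo DNA methyltransferases Dnmt3a and Dnmt3b were higher. Dnmt3b was at 237, 227, 310.2, 239.7 and 285 CPM in wt 1 to wt 5 and 445, 447 and 430.4 CPM in wt 6 to wt 8 (log2 fold change 0.76 ± 0.10, adjusted p = 0.000304), and Dnmt3a was higher, at 273 ± 6.44 against 150.2 ± 22.9 CPM (log2 fold change 0.86 ± 0.11, adjusted p = 0.00021). Etv4, an ETS factor downstream of FGF, was at 86.0, 88.8, 121, 95.9 and 94.7 CPM and 228, 228 and 232 CPM (log2 fold change 1.24 ± 0.10, adjusted p = 1.74e-05), and the forkhead factor Foxd3 at 10.2, 11.7, 19.06, 11.3 and 14.8 CPM and 34.4, 30.2 and 34.8 CPM (log2 fold change 1.30 ± 0.17, adjusted p = 0.000277).

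In contrast, Otx2, the homeobox factor that opens the path to the primed state, was slightly lower, at 49.4, 49.7, 49.9, 52.7 and 66.2 CPM and 41.2, 41.4 and 44.6 CPM (log2 fold change -0.34 ± 0.11, adjusted p = 0.0269), a call lost when wt 6, wt 7 or wt 8 was left out. Lef1, a Wnt-responsive HMG factor, was lower, at 8.21 ± 1.38 against 17.0 ± 3.98 CPM (log2 fold change -1.05 ± 0.21, adjusted p = 0.00287), and Zic5 at 4.10 ± 0.0788 against 10.8 ± 0.730 CPM (log2 fold change -1.40 ± 0.12, adjusted p = 2.59e-05). Fgf5, the usual marker of the primed epiblast, was under 1 CPM in all libraries and was not called (log2 fold change 0.52 ± 0.46, adjusted p = 0.397).

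Signalling targets were read in the same way. Over all tested genes 17.4% were higher and 18.7% lower in wt 6-8. Of 15 FGF and ERK targets, 7 were higher (46.7%) and 3 lower (20%), with a median of 0.08. The feedback phosphatase Dusp6 was higher, at 102 ± 5.24 against 62.0 ± 6.48 CPM (log2 fold change 0.72 ± 0.09, adjusted p = 0.00021), the inhibitor Spry4 at 208 ± 6.39 against 127 ± 17.2 CPM (log2 fold change 0.71 ± 0.10, adjusted p = 0.000377) and Phlda1 at 19.4 ± 0.371 against 7.18 ± 1.22 CPM (log2 fold change 1.43 ± 0.13, adjusted p = 3.91e-05). Of 15 genes of LIF and STAT3 signalling, 3 were higher (20%) and 0 lower, with a median of 0.10 (5 and 0 without wt 3, 2 and 2 with all 18 samples in the fit). Lifr, the LIF receptor, was higher by 0.38 on the log2 scale (adjusted p = 0.0162), a call lost without wt 6 or wt 8. Of 14 tested Wnt targets (15 listed), 5 were higher (35.7%) and 6 lower (42.9%), with a median of -0.18. The counts were 2 and 7 with thinned counts and 3 and 5 with a length correction. Axin2, the feedback inhibitor of Wnt signalling, was at 6.0, 6.33, 7.90, 8.61 and 8.31 CPM and 14.9, 15.3 and 15.2 CPM (log2 fold change 1.02 ± 0.13, adjusted p = 0.000263), while the receptor ligase Rnf43 was lower, at 0.930 ± 0.303 against 3.91 ± 1.27 CPM (log2 fold change -2.07 ± 0.33, adjusted p = 0.000866).

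Of 14 tested Nodal and BMP genes (15 listed), 2 were higher (14.3%) and 6 lower (42.9%) in wt 6-8, with a median of -0.26. Over all tested genes the shares were 17.4% and 18.7%. Id1, a direct target of BMP signalling, was at 30.2, 33.0, 27.0, 35.4 and 35.5 CPM in wt 1 to wt 5 and 100.2, 96.0 and 113 CPM in wt 6 to wt 8 (log2 fold change 1.68 ± 0.10, adjusted p = 1.98e-06). The Nodal antagonist Lefty1 was lower, at 47.8 ± 1.41 against 109 ± 27.2 CPM (log2 fold change -1.19 ± 0.17, adjusted p = 0.000499) and the ligand Bmp7 at 3.74 ± 0.205 against 12.9 ± 4.33 CPM (log2 fold change -1.79 ± 0.26, adjusted p = 0.000444). Bmp4, the ligand listed with primitive streak and mesoderm genes, differed among all 3 sets, at 34.3 and 36.3 CPM in wt 1-2, 72.6, 63.5 and 67.5 CPM in wt 3-5 and 149, 148 and 143 CPM in wt 6-8. It was higher in wt 6-8 than in wt 1-5 (log2 fold change 1.42 ± 0.22, adjusted p = 0.000638) and higher in wt 3-5 than in wt 1-2 (log2 fold change 0.94 ± 0.08, adjusted p = 0.000199). Of the 12 tested genes of that list (19 listed), 4 were higher (33.3%) and 1 lower (8.33%) in wt 6-8, with a median of 0.26.

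The 2-cell-like state is marked by the Zscan4 cluster and other genes of the cleavage embryo, and only a small share of ES cells is in it at a time. Many of them are near-identical copies, so reads may be shared among them and each level is uncertain. Of 21 tested members (29 in the table), 8 were higher (38.1%, against 17.4% of all tested genes) and 0 lower in wt 6-8 than in wt 1-5, with a median of 0.70. This was 5 higher without wt 3 and 3 higher with all 18 samples in the fit. By set, 16 of the 21 (76.2%) were higher in wt 6-8 than in wt 3-5, against 25.0% of all tested genes, with a median of 1.04. Against wt 1-2 only 3 (14.3%) were higher, against 18.4% of all tested genes, with a median of 0.26. Between wt 3-5 and wt 1-2 the list had 0 higher and 11 lower (52.4%, against 9.95%), with a median of -0.80. With a GC content correction the list had 3 lower, with all 18 samples in the fit 1 lower, and with thinned counts 6 lower of 16 tested.

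Zscan4c (Entrez 245109, chromosome 7, 11005745 to 11010547) was at 7.39 and 7.34 CPM in wt 1-2, 5.06, 3.74 and 3.60 CPM in wt 3-5 and 7.39, 8.60 and 9.18 CPM in wt 6-8. The level in wt 3-5 was under that of both other sets with no overlap, and wt 3-5 was lower than wt 1-2 (log2 fold change -0.83 ± 0.17, adjusted p = 0.00785), a call lost without wt 1 or wt 2 and with all 18 samples in the fit. Against wt 1-5 it was not called (log2 fold change 0.64 ± 0.24, adjusted p = 0.0559). Zscan4d was at 4.48 and 4.30, 3.39, 2.26 and 2.40 and 4.64, 5.27 and 6.88 CPM in the same order, and was called higher in wt 6-8 (log2 fold change 0.75 ± 0.24, adjusted p = 0.0314), a call lost when wt 4, 5, 7 or 8 was left out and with all 18 samples in the fit. Gm4340 was at 13.5 and 13.9, 8.95, 6.93 and 5.84 and 19.5, 19.07 and 21.6 CPM, higher in wt 6-8 (log2 fold change 1.04 ± 0.24, adjusted p = 0.00689) and lower in wt 3-5 than in wt 1-2 (log2 fold change -0.92 ± 0.15, adjusted p = 0.00323), and both calls were lost with all 18 samples in the fit. Arg2 (1.03 ± 0.30) and Sp110 (1.69 ± 0.40, both log2 fold changes of wt 6-8 against wt 1-5) were higher at levels near or under 1 CPM, with adjusted p = 0.0183 and 0.00758. Arg2 was not called without wt 6 or wt 8. Sp110 had a value in only 11 of the 18 alternative settings, and was called in those. Zfp352, another gene of this state, stayed under the count minimum with 46 counts over all libraries.

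**Figure D5:**
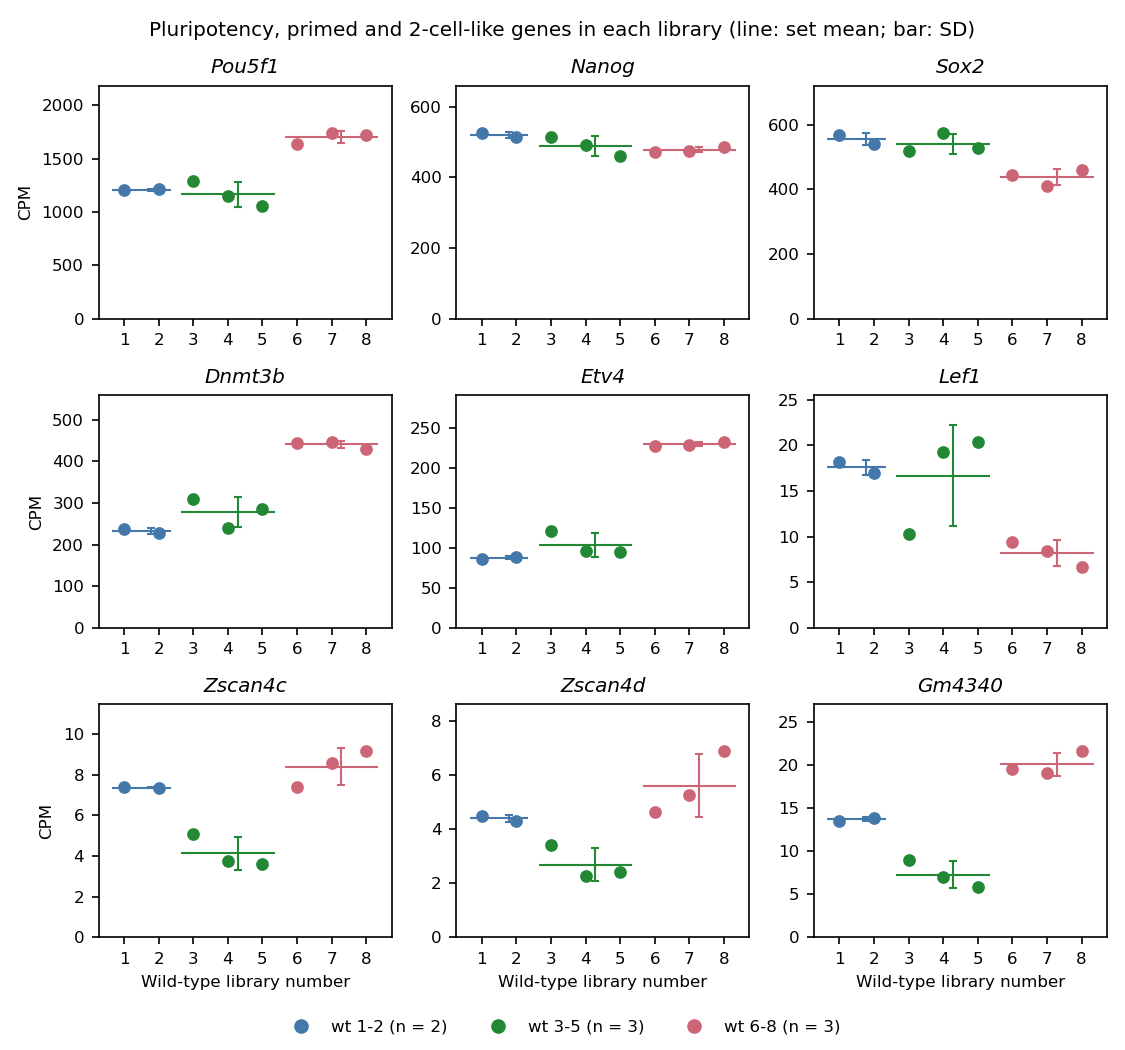
CPM (y axis, from 0) of 9 pluripotency, primed-state and 2-cell-like genes in each wild-type library (x axis, library number), coloured by set, with lines at set means and bars of 1 SD. Nanog overlaps between sets at 461 to 527 CPM, Dnmt3b and Etv4 are highest in wt 6-8, and Zscan4c is lowest in wt 3-5 at 3.60 to 5.06 CPM.

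Lists of other lineages held genes called in both directions, as did the tested genes as a whole (17.4% higher and 18.7% lower in wt 6-8). Of 19 tested germline genes (20 listed), 5 were higher (26.3%) and 3 lower (15.8%) in wt 6-8, with a median of 0.22. Dazl, an RNA-binding protein of germ cells, was higher, at 23.3 ± 0.394 against 14.3 ± 1.49 CPM (log2 fold change 0.71 ± 0.10, adjusted p = 0.000423) and Sycp3, of the synaptonemal complex, was lower, at 6.0 ± 0.0190 against 19.8 ± 2.56 CPM (log2 fold change -1.72 ± 0.13, adjusted p = 1.28e-05). Of 16 tested trophectoderm genes (18 listed), 5 were higher and 5 lower (31.2% each), with a median of 0.05 that was -0.01 without wt 3. Krt19, a keratin, was lower, at 5.81 ± 0.668 against 19.2 ± 5.99 CPM (log2 fold change -1.73 ± 0.26, adjusted p = 0.000548), and Tfap2c at 39.1 ± 2.57 against 79.0 ± 13.5 CPM (log2 fold change -1.01 ± 0.13, adjusted p = 0.000268). Of 9 tested neuroectoderm genes (17 listed), 1 was higher (11.1%) and 2 lower (22.2%), with a median of -0.13. Of 16 tested fibroblast genes (26 listed), 2 were higher (12.5%) and 5 lower (31.2%), with a median of -0.16, against 1 and 5 without wt 3.

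Of 31 tested imprinted genes (32 listed), 5 were higher (16.1%) and 6 lower (19.4%), with a median of -0.11, shares near the 17.4% and 18.7% of all tested genes. The cell cycle inhibitor Cdkn1c was at 29.4, 31.8, 32.9, 31.0 and 29.6 CPM in wt 1 to wt 5 and 74.4, 69.3 and 79.0 CPM in wt 6 to wt 8 (log2 fold change 1.26 ± 0.08, adjusted p = 1.98e-06), and the retrotransposon-derived Peg10 was higher, at 752 ± 46.4 against 373 ± 37.8 CPM (log2 fold change 1.01 ± 0.09, adjusted p = 3.34e-05). Among 25 cell cycle genes, 5 were higher (20%) and 3 lower (12%), with a median of 0.06, against 8 and 6 without wt 3. Among 21 immediate early genes 5 were higher (23.8%) and 1 lower (4.76%), with a median of 0.00, against 7 and 3 without wt 3. Fos, a growth factor response gene, was higher, at 9.30 ± 2.173 against 4.54 ± 1.15 CPM (log2 fold change 1.02 ± 0.21, adjusted p = 0.0037). In wt 3-5 against wt 1-2 the immediate early list had 7 higher and 1 lower, with a median of 0.59, against 9.48% and 9.95% of all tested genes. With a GC correction 3 were higher and 1 lower, and with all 18 samples in the fit 4 and 0.

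Of 14 tested interferon response genes (20 listed), 1 was higher (7.14%, against 17.4% of all tested genes) and 6 lower (42.9%, against 18.7%), with a median of -0.24. Without wt 3, and also with all 18 samples in the fit, 1 was higher and 3 lower. Of 48 tested replication-dependent histone genes (60 in the table), 0 were higher and 3 lower (6.25%), with a median of -0.29. The counts were 0 and 7 of 46 tested without wt 3 and 0 and 5 with a length correction. These transcripts are near-identical and mostly lack poly(A) tails, so their levels are uncertain. Of 82 ribosomal protein genes, 0 were higher and 14 lower (17.1%, against 18.7% of all tested genes), with a median of -0.06, and with a length correction 25 were lower. Against wt 3-5 alone 25 were higher (30.5%, against 25.0% of all tested genes) and 23 lower (28%, against 23.9%) in wt 6-8. Against wt 1-2 alone 0 were higher and 30 lower (36.6%, against 17.6%). In wt 3-5 against wt 1-2 the counts were 8 higher (9.76%, against 9.48%) and 31 lower (37.8%, against 9.95%). They were 13 and 40 without wt 3, and 14 and 31 with a length correction. Of 12 tested nuclear noncoding RNAs (14 listed), 0 were higher and 4 lower (33.3%, and 6 lower without wt 3), with a median of -0.18. Among the 4 was Malat1 (log2 fold change -0.65 ± 0.12, adjusted p = 0.00171). Wt 3 was the lowest of wt 1-5 in all 4 of those, against 41.8% of all 2760 genes called lower.

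The 12 genes with the largest positive log2 fold changes that met the naming rule were Esam, Dkk1, Cubn, Tcf23, Exoc3l, Tfec, Skor1, S100a6, Pdzd3, Soga3, Robo4 and Nostrin. The adhesion molecule Esam was at 1.30, 0.937, 2.07, 1.45 and 1.64 CPM in wt 1 to wt 5 and 10.2, 12.4 and 12.2 CPM in wt 6 to wt 8 (log2 fold change 2.95 ± 0.20, adjusted p = 4.58e-06). S100a6, a calcium-binding protein, was at 26.6, 25.97, 21.2, 21.2 and 19.6 CPM and 107, 103 and 110.3 CPM (log2 fold change 2.22 ± 0.10, adjusted p = 5.93e-07). Exoc3l was at 7.26, 8.83, 13.7, 9.49 and 11.3 CPM and 58.3, 60.7 and 59.8 CPM (log2 fold change 2.55 ± 0.15, adjusted p = 1.98e-06). Cubn and Dkk1 are described above, and the remaining members ran from 2.05 (Nostrin) to 2.58 (Tcf23) on the log2 scale.

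The 12 with the largest negative ones were Ndufa4l2, Grin1, Zc3h6, A2m, Bhlhe41, Mobp, Bnip3, Aoc3, Lrrc31, Pygl, Ddit4 and Vldlr. A2m, a protease inhibitor, was at 48.5 and 53.3 CPM in wt 1-2, 18.3, 52.3 and 46.1 CPM in wt 3-5 and 4.31, 4.97 and 5.10 CPM in wt 6-8 (log2 fold change -3.19 ± 0.33, adjusted p = 7.2e-05). Grin1, an NMDA receptor subunit, was at 7.82, 7.62, 3.24, 8.46 and 6.92 CPM in wt 1 to wt 5 and 0.593, 0.363 and 0.459 CPM in wt 6 to wt 8 (log2 fold change -3.82 ± 0.39, adjusted p = 6.65e-05). Vldlr, a lipoprotein receptor, was at 12.8, 11.9, 3.64, 10.5 and 9.86 CPM and 1.89, 1.33 and 2.18 CPM (log2 fold change -2.42 ± 0.39, adjusted p = 0.000824). For each of these, wt 3 was the lowest of wt 1-5, as it was for 41.8% of all 2760 genes called lower. Pygl, the liver form of glycogen phosphorylase, was lower, at 1.28 ± 0.302 against 7.72 ± 3.00 CPM (log2 fold change -2.58 ± 0.36, adjusted p = 0.000387).

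Wt 3-5 and wt 1-2 differed by smaller steps, with 41 genes 2-fold or more higher and 61 lower in wt 3-5. By the naming rule the genes furthest up were Acta2, Snai1, Pga5, Zbtb7b, Scd4 and Prr36, and those furthest down Lsm5, Rpl22l1, Rasl2-9, Cenpw, Il31ra and Snord33. Acta2, a smooth muscle actin, was at 6.13 and 5.43 CPM in wt 1-2, 19.2, 12.1 and 14.9 CPM in wt 3-5 and 6.25, 6.60 and 6.19 CPM in wt 6-8, higher in wt 3-5 than in wt 1-2 (log2 fold change 1.41 ± 0.19, adjusted p = 0.00115). Rpl22l1, a paralogue of a ribosomal protein, was at 73.5 and 74.1, 27.1, 28.9 and 27.8 and 65.0, 78.4 and 71.9 CPM in the same order (log2 fold change -1.40 ± 0.08, adjusted p = 1.9e-05). Wt 3-5 did not overlap wt 1-2 or wt 6-8 for either gene. Lsm5, of the RNA-binding Lsm ring, was at 13.5 and 12.2, 4.63, 4.28 and 2.81 and 9.17, 9.45 and 10.2 CPM (log2 fold change -1.71 ± 0.18, adjusted p = 0.000533). Rpl22l1 has processed copies and Snord33 lies within a host gene, so reads may be shared and their levels are uncertain.

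The comparisons of single sets also went with base composition. Over 10 bins of transcript GC content with like numbers of genes, the median log2 fold change of wt 3-5 against wt 1-2 ran from -0.23 to 0.26, and that of wt 6-8 against wt 1-5 from -0.05 to 0.04. The medians of wt 6-8 against wt 1-2 ran from -0.10 to 0.14 and were higher at high GC content, and those of wt 6-8 against wt 3-5 ran from -0.12 to 0.14 and were lower at high GC content. Over bins of exonic length the medians of wt 6-8 against wt 1-5 ran from -0.10 to 0.06. With a GC correction the calls between wt 3-5 and wt 1-2 went from 2870 to 1234. Of 20 genes named for that comparison, Gata4, Smarca5 and Zscan4d lost their calls with it.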

How the data were processed

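Polyadenylated RNA was sequenced from 18 samples, of which the 8 wild-type libraries were used. The authors deposited 1 table of raw read counts, keyed by Entrez gene, with symbols and exonic length. Per the labels' protocols, RNA was purified on RNeasy columns and libraries were made with a stranded TruSeq kit, and per the submitters' processing notes bcl2fastq 2.17 and STAR were used with the mm10 (GRCm38) genome. Not given in the sources used here are which STAR release ran, how reads were assigned to genes and whether strand was used, so reads of overlapping genes may be mixed. Of 24116 genes, 9 had no symbol and 4596 had no count in the wild-type libraries. The filterByExpr function with a count minimum of 10 left 14767.

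Fits used edgeR 4.0.16 in R 4.3.3 (TMM, robust quasi-likelihood test, two-sided) with Benjamini-Hochberg adjustment over all tested genes. Wt 6-8 and wt 1-5 had 1 mean each in one fit, and the other 3 comparisons came from a fit with 1 mean per set. The biological coefficient of variation was 0.121 and 0.0909. CPM values use TMM-scaled totals, and log2 CPM a prior count of 2. Values after ± are SD for CPM and SE for log2 fold changes. The SE was the absolute log2 fold change divided by the square root of the F statistic. Coordinates and promoter windows came from RefSeq (GRCm38.p6), joined by Entrez identifier, with coordinates for 14750 of the tested genes. GC content came from GENCODE transcripts for 14132.

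The sets of libraries, the 29 lists and the members named were chosen with earlier results of these data known. Named were Smarca5, 25 well-known genes, up to 4 genes of each list with the smallest adjusted p, and the largest differences among genes with an adjusted p under 0.05, at least 5 CPM in the higher set, no overlap and a symbol that is no predicted name (12 in each direction for wt 6-8 against wt 1-5, 6 for the others). Where members under the count minimum are named, this was done after their counts were seen. The alternatives were DESeq2 1.42.0 (size factors or its own test), library size alone, no filter, at least 1 CPM in 3 libraries, thinned counts, all 18 samples in the fit, length and GC corrections, set means, and each library left out. The scripts were tested on simulated data.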

Additional observations from a re-analysis of the deposited data

Results flagged for a closer look

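Among the 5 libraries of wt 1-5, 115 items were examined for a single library far from the other 4. The items were the named genes and the total of counted reads. In 10 of them, all genes, the gap to the nearest library was above 0.71 of the whole range. Chance passes that limit for about 1 item in 20. Wt 3 was the outlying library for 5 of them. Bnip3 was at 40.4 CPM in wt 3 and 125 to 132 CPM in the others, A2m at 18.3 against 46.1 to 53.3 CPM, and Ldha at 1229 against 1554 to 1655 CPM. Etv4 was highest in wt 3, at 121 against 86.0 to 95.9 CPM, and so was Tcf23, at 1.88 against 0.898 to 1.12 CPM. Wt 5 was highest for 4 genes, with Bbc3 at 43.7 against 26.2 to 30.3 CPM, Otx2 at 66.2 against 49.4 to 52.7 CPM, P3h2 at 1.39 against 0.898 to 1.04 CPM and Spry4 at 157 against 115 to 126 CPM. Psat1 was lowest in wt 4, at 474 against 569 to 578 CPM.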

How the results depend on the processing

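The count of genes called between wt 6-8 and wt 1-5 (5327) lay between 3157 and 6243 when each library was left out in turn, and between 4955 and 7105 under the other settings. That between wt 6-8 and wt 1-2 (5318) lay between 2195 and 7636 when each library was left out, and that between wt 3-5 and wt 1-2 (2870) between 301 and 5675. A GC content correction, chosen after the data were seen, gave 1234 for wt 3-5 against wt 1-2. Fits that leave wt 1-2 with 1 library assume that it varies like the other sets, and fewer libraries enter each of them. The count between wt 6-8 and wt 3-5 stayed within 1.5 times of 7210 in every setting run. Of 95 named genes called between wt 6-8 and wt 1-5, none changed direction, and those whose calls were lost were Sqle, Otx2, Arg2, Lifr, Zscan4d, Gm4340, Foxa2, Col4a1 and Lama1. Sp110 had a value in only 11 of the 18 settings. Of 20 named between wt 3-5 and wt 1-2, none changed direction, and Gata4, Spink1, Smarca5, Zscan4c, Zscan4d, Gm4340, Scd4, Snai1, Pga5 and Il31ra lost their calls in at least 1 setting. Between wt 6-8 and wt 1-5 the list medians that changed sign in some settings were those of the immediate early, trophectoderm and neuroectoderm lists. Between wt 3-5 and wt 1-2 (GC, length, thinned, all 18 samples, or without wt 3) they were those of the glycolysis, Nodal and BMP, histone, p53, cell cycle, imprinted and neuroectoderm lists. No paired analysis was possible because the compared sets carry different replicate numbers. Genes under the count minimum of 10 were not tested, and the smallest total, 16808855 counts, limits what can be detected.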
